A study of Mus musculus with 21 samples.

Results

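The regions described here are stretches of open chromatin, with a midpoint away from the starts of protein-coding genes, that were shared by 4 sorted stromal populations of the mouse colon. They were chosen by overlap and position: a peak of the MRISC list on chromosomes 1 to 19 or X had to overlap a peak of the CD34 SP, the CD138 and the Myofibroblast list by at least 1 bp, and its midpoint had to lie more than 1 kb from every protein-coding transcription start (mm10). This left 23628 of 177038 MRISC peaks, or 13.3%. The overlap of the lists chose the regions, so their widths, scores and presence in each list are given as a description, with no test.

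The study mapped open chromatin by ATAC-seq in cells labelled MRISC, CD34 SP, CD34-CD138+ (here CD138) and Myofibroblast, from male C57BL/6 mice aged 12 weeks. MRISC stands for Map3k2-regulated intestinal stromal cell. All 4 were sorted after collagenase VIII and DNase I digestion as gp38+ cells without CD45, Epcam and CD31, with further subset antibodies. Each population had 2 libraries but 1 pooled list of peaks, so there is no spread between replicates, the read depth is unknown, and intervals below cover counting error only. Gene levels came from 1 droplet library of gp38+CD90+ cells of wild-type female C57BL/6 mice aged 12 weeks, given 2% DSS (a sulfated polysaccharide that causes colitis) and taken at day 3. Its 11376 kept cells gave 72920197 UMIs (median 6052). The 12 bulk RNA libraries were not analysed here. A peak may be open in all cells of a sort or in some of them, and the lists cannot tell these apart.

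ATAC-seq marks DNA that a transposase can reach, which outside promoters is mostly enhancers and insulators. CTCF is a zinc finger protein that stops the cohesin ring and so anchors chromatin loops, and it is known to occupy many of the same sites in different cell types. AP-1 is a dimer of Fos and Jun family proteins that is induced by growth factors and stress and binds many enhancers of fibroblasts. SP and KLF proteins bind GC-rich sequence, which is common at promoters.

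The results below turn on short motifs, above all those of CTCF and AP-1, so the central 200 bp of regions with each motif, from among the best scored, are shown first. Each is the plus strand of GRCm38 (the assembly of mm10), 5′ to 3′, with the motif in capitals, and all 5 scored above the 98th percentile of every list.
CTCF region near Rassf7, chr7:141221835-141222034: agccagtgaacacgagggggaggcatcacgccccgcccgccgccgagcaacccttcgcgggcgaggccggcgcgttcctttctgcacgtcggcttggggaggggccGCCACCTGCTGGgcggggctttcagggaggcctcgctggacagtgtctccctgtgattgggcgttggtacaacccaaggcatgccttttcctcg
CTCF region near Zfp286, chr11:62756864-62757063: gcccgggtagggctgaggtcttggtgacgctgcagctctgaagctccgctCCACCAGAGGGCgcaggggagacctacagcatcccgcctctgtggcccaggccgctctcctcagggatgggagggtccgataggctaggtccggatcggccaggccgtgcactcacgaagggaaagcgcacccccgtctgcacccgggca
AP-1 region near Azin1, chr15:38470810-38471009: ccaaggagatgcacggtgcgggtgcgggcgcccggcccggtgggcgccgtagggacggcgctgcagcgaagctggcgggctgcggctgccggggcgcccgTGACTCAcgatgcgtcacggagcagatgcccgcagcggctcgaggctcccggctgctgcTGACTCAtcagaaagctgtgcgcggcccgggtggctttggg
AP-1 region near Pfkfb3, chr2:11429611-11429810: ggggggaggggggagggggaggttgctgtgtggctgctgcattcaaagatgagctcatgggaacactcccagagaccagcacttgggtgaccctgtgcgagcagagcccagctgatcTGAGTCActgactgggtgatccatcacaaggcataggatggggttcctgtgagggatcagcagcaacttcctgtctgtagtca
SP/KLF region near Glis2, chr16:4586661-4586860: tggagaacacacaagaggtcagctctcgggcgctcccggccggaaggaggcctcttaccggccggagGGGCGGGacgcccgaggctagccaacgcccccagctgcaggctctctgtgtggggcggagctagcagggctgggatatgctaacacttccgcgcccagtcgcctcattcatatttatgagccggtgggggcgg
The CTCF match lies on the minus strand in the region near Rassf7 and on the plus strand in the region near Zfp286. The first was 442 bp from the start of the microRNA gene Mir210 and the second 144 bp from that of the antisense RNA Zfp286os, so both are distal only with respect to protein-coding starts. The AP-1 motif, TGANTCA, reads the same on both strands and is present at 2 places in the region near Azin1. Azin1 (an inhibitor of antizyme, which controls polyamines) and Pfkfb3 (a glycolytic regulator) had their nearest starts 47252 bp and 71989 bp away. The region near Glis2, a zinc finger factor gene, lay 7952 bp from its start and held the SP/KLF motif, GGGCGGG, as well as the ETS motif, CCGGAAG. One region with the SP/KLF motif scored higher, that near Zbtb20 described below, which lies at a noncoding start.

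The CTCF motif was the one that differed most between shared and unshared regions. It was present in the central 200 bp of 7.30% of the 23628 shared distal regions (1726 regions, Wilson 95% interval 6.98% to 7.64%). Of the 79287 distal MRISC peaks found in no other list it was present in 0.513% (0.466% to 0.566%), so the share was 14.2 times as high (12.8 to 15.8), and over all distal MRISC peaks it was 2.86%. The share was 2.50% in regions of 2 lists and 6.55% in regions of 3. In this count from MRISC most of the rise was thus reached before the last list was added. In windows 1 kb to the side of the shared regions it was 0.385%, and in the 12481 promoter peaks shared by all 4 lists it was 1.54%.

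The AP-1 motif was more frequent than that of CTCF and rose less. It was found in 19.3% of the shared distal regions (4566 regions, interval 18.8% to 19.8%), against 8.84% of those found in MRISC alone (8.65% to 9.04%) and 13.6% of all distal MRISC peaks. The ratio of the first 2 shares was 2.19 (2.11 to 2.26). Regions of 2 and of 3 lists already had 17.9% and 18.4%. In windows 1 kb to the side it was 5.86%, and in the shared promoters 3.42%.

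Of 19 motifs common enough to rank, the other high ratios belonged to SP/KLF, ETS, STAT and TCF21, and the low ones to TCF/LEF, GATA and YY1. SP/KLF was present in 5.73% of the shared distal regions and 1.53% of those in MRISC alone (2.76% of all distal peaks), and ETS in 1.98% and 0.822% (1.12%). Both were far more frequent in the shared promoters, at 33.1% and 9.90%. STAT (TTCCNGGAA, the site of the cytokine-activated STAT factors) was found in 1.33% and 0.661% (0.897% of all), and the E-box CAGCTG, a site of TCF21 and related mesenchymal factors, in 20.8% and 11.5% (15.3% of all). ETS and STAT motifs can overlap by letters, and 20 regions held both. These ratios depended on what was held equal. With shares averaged within 10 bins of GC content the SP/KLF ratio moved from 3.74 to 2.05, below that of AP-1 (2.38), while ETS was at 1.65, STAT at 2.09 and TCF21 at 1.48. Within the top 20% of MRISC scores the STAT ratio moved from 2.02 to 1.01, with only 431 MRISC-only regions left.

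Motifs that were less frequent in the shared regions than in MRISC-only ones were TCF/LEF (CTTTGAT, the site of the nuclear factors of Wnt signalling), at 2.11% against 3.00% (2.7% of all distal peaks), the motif of GATA factors, which reads AGATAA, at 7.67% against 9.98% (9.33%), and that of YY1, which reads AAGATGGC, at 0.948% against 1.21% (1.12%). Within the same GC bins the GATA ratio moved from 0.769 to 0.982, while the CTCF ratio was 10.6. The median GC content was 50.5% in the shared regions and 47.5% in those of MRISC alone. A motif names a family of factors and is a match of letters, not a measured binding site.

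**Figure D1:**
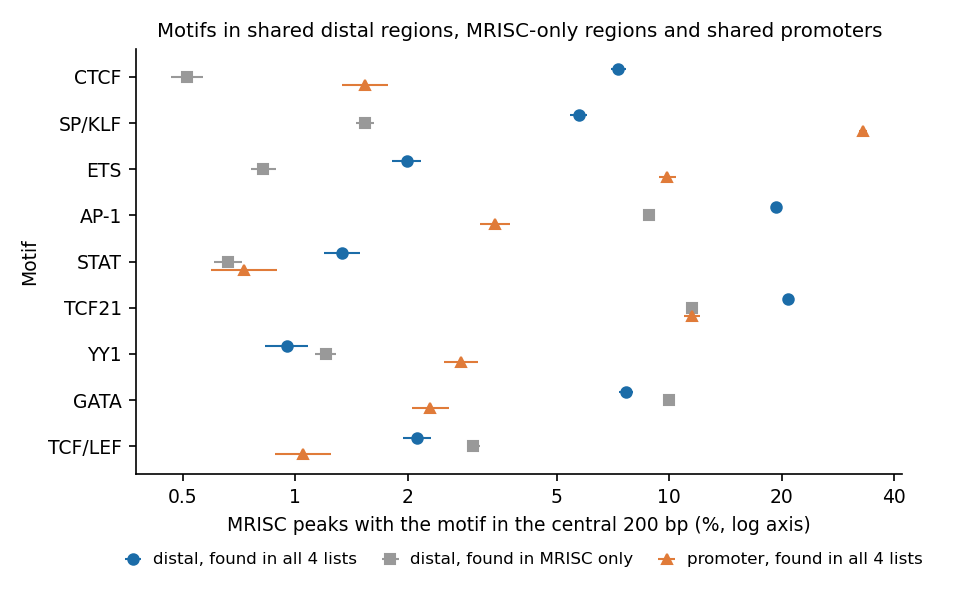
Share of MRISC peaks that hold each motif in the central 200 bp (log axis, in %), for distal regions of all 4 lists (circles, n = 23628), distal regions of MRISC only (squares, n = 79287) and promoter peaks of all 4 lists (triangles, n = 12481), with Wilson 95% intervals. CTCF lies at 7.30%, 0.513% and 1.54%, and SP/KLF at 5.73%, 1.53% and 33.1%.

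CTCF rose with each added list from whichever list the count was started. Starting from CD34 SP its share went from 0.962% in regions of that list alone to 7.29% in regions of all 4, from CD138 from 0.516% to 8.32%, and from Myofibroblast from 0.202% to 7.44%. AP-1 did not. Starting from CD34 SP its share was 12.6%, 19.9%, 18.9% and 18.5% in regions of 1, 2, 3 and 4 lists, so it peaked at 2 lists, while from CD138 it rose from 7.26% to 20.4% and from Myofibroblast from 6.80% to 20.7%.

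**Figure D2:**
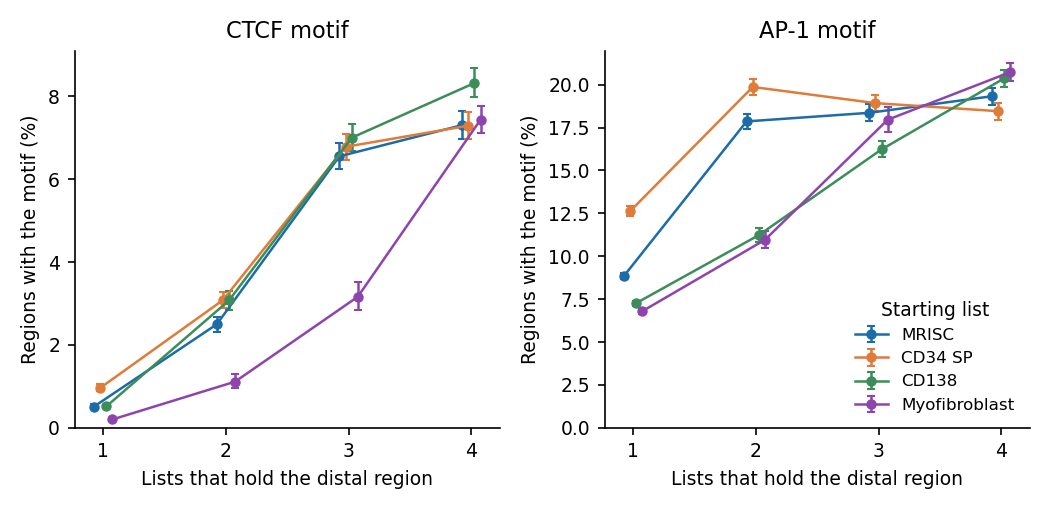
Share of distal regions with the CTCF motif (left) and the AP-1 motif (right), in %, by the number of lists that hold the region, with 1 line for each list the count was started from and Wilson 95% intervals. The 4 CTCF lines end between 7.29% and 8.32%; the AP-1 line of CD34 SP peaks at 19.9% for 2 lists.

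Score set the 2 motifs apart further. Shared regions scored higher and were wider than MRISC-only regions, with a median width of 610 bp against 141 bp and a median MRISC score at the 84.1th against the 28.8th percentile. Within the top 20% of MRISC scores, CTCF was still more frequent in regions of 4 lists (6.24%, interval 5.86% to 6.64%, n = 14670) than in those of MRISC alone (0.928%, 0.361% to 2.36%, n = 431). AP-1 was not more frequent in the 4-list regions there: 20.9% of them held it (20.3% to 21.6%). Of the MRISC-only regions 24.4% did (20.5% to 28.6%, which overlaps the first interval), and of those of 2 lists 29.5% (27.5% to 31.6%). In the top 20% of CD34 SP scores AP-1 was likewise lower in regions of all 4 lists (21.3%) than in those of 2 lists (35.3%). In the top 20% of Myofibroblast scores AP-1 went the other way, from 8.32% in regions of that list alone to 23.5% in regions of all 4, and in that of CD138 from 10.1% to 19.5%. CTCF went from 0.385% to 7.24% in the top 20% of Myofibroblast scores. In that of CD138 it went from 2.45% to 9.03%, with 9.61% in regions of 3 lists. In that of CD34 SP only 13 regions of that list alone were left, 0 with CTCF, against 4.97% in regions of all 4.

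Which list was missing from a region of 3 lists also went with a different motif. Of the 24632 distal MRISC peaks in 3 lists, 19076 (77.4%) lacked Myofibroblast, 4447 (18.1%) lacked CD138 and 1109 (4.50%) lacked CD34 SP. Regions without CD138 had AP-1 in 25% (23.7% to 26.3%) and CTCF in 3.31% (2.82% to 3.87%). Those without Myofibroblast had 17.2% (16.7% to 17.7%) and 7.33% (6.97% to 7.71%), and those without CD34 SP 12.1% (10.3% to 14.1%) and 6.22% (4.95% to 7.80%). The shared regions, at 19.3% and 7.30%, lay below the regions without CD138 in AP-1 and close to those without Myofibroblast in CTCF.

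CTCF and AP-1 motifs were seldom in the same shared region. Only 92 regions held both, so AP-1 was present in 5.33% of the 1726 regions with CTCF and in 20.4% of the rest. Regions with CTCF were narrower (median 433.5 bp against 636 bp) and closer to a protein-coding start (17185.5 bp against 23574 bp), and 52.8% of them were intergenic against 46.5%. Regions with AP-1 lay farther out (27787.5 bp against 21883 bp for those without) and were seldom in exons, at 3.26% against 5.86%.

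Both motifs lay nearer to the middle in the shared regions than in those of MRISC alone, CTCF more so. Within 500 bp on either side of the midpoint, 10.7% of the shared regions had a CTCF motif, and 50.4% of the nearest ones were within 50 bp of the midpoint (also the median distance). In regions of MRISC alone 1.46% had one, at a median of 187 bp. For AP-1 the shares were 42.0% and 29.3%, with medians of 112.5 bp and 192.5 bp, and 29.1% and 17.7% of the nearest motifs were within 50 bp. The MRISC-only regions had a median width of 141 bp (upper quartile 199 bp), against 610 bp for the shared ones. Most of the 1 kb searched thus lay outside a typical MRISC-only region, and the central 200 bp also ran past the ends of most of them.

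**Figure D3:**
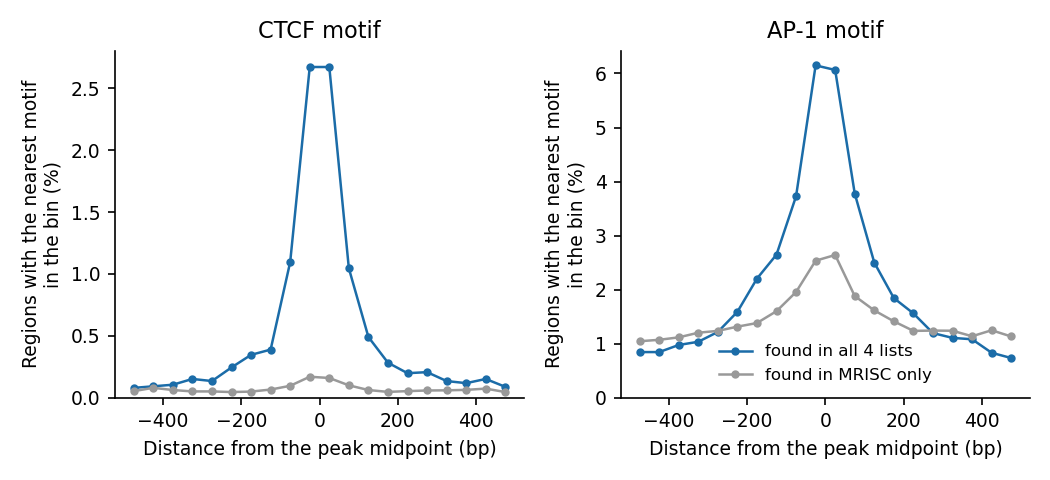
Share of distal regions (%) whose nearest CTCF motif (left) or AP-1 motif (right) falls in each 50 bp bin, by distance from the MRISC peak midpoint (bp), for regions of all 4 lists and of MRISC only. The nearest CTCF motif lay at a median of 50 bp in the first and 187 bp in the second, whose median widths were 610 bp and 141 bp.

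In the 4 lists the shared regions ranked high, with the widest spread in Myofibroblast. The score of the best overlapping peak had a median at the 84.1th percentile of MRISC, the 83.0th of CD34 SP, the 86.7th of CD138 and the 83.3th of Myofibroblast. The 5th percentile of the regions lay at 48.8, 48.3, 38.9 and 18.6 in the same order, and Myofibroblast was the lowest list for 37.8% of regions. Across the 23628 regions the percentiles of MRISC and CD34 SP had a Spearman correlation of 0.745, and the other 5 pairs 0.458 to 0.558; these are descriptions of the chosen regions.

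**Figure D4:**
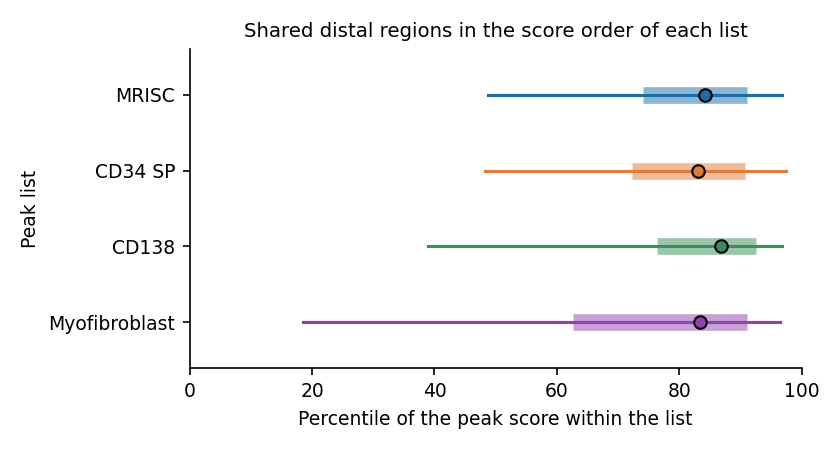
Percentile of the peak score within each list for the 23628 shared distal regions; dots are medians, thick bars the middle 50% and thin lines the 5th to the 95th percentile. The medians lie between 83.0 and 86.7, and the thin line of Myofibroblast reaches down to 18.6.

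About 1 region in 3 was strong everywhere: 7547 (31.9%) ranked above the 80th percentile of all 4 lists. At the other end 2103 (8.90%) ranked below the 20th percentile of at least 1 list. A small set of 225 ranked below the 20th in Myofibroblast and above the 80th in the other 3, against 27 such regions for CD138, 17 for MRISC and 4 for CD34 SP. The 225 had a median width of 739 bp in MRISC and 95 bp in Myofibroblast, so by the overlap rule they count as shared although the Myofibroblast peak was small. AP-1 was present in 25.8% of them (20.5% to 31.9%) and TCF21 in 28.0% (22.5% to 34.2%). STAT and CTCF were each present in 4.0% (9 regions, 2.12% to 7.43%). Over all shared regions the shares of AP-1, TCF21, STAT and CTCF were 19.3%, 20.8%, 1.33% and 7.30%. In the 7547 regions strong everywhere they were 21.4%, 21.8%, 1.31% and 5.14%, for AP-1 and CTCF inside the intervals of the 225.

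Among these 225, regions chosen after their values were seen include chr3:109272981-109273880, an intergenic region 67222 bp from Vav3 (a guanine nucleotide exchange factor), at the 95.4th, 98.6th and 95.8th percentile of MRISC, CD34 SP and CD138 and the 15.3th of Myofibroblast. A region in an intron of Gda (guanine deaminase), chr19:21438703-21439919, ranked at 94.6, 93.9 and 93.3 in those lists and at 2.43 in Myofibroblast, where its peak was 39 bp wide. A region 24270 bp from Lpar1, a receptor for lysophosphatidic acid, chr4:58577405-58578930, ranked at 93.2, 96.7 and 96.0 and at 15.5.

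Motif content also followed strength within the shared regions. Ordered into 5 equal groups by the lowest of their 4 percentiles, SP/KLF rose from 4.04% in the weakest group to 10.3% in the strongest, and AP-1 from 18.2% to 21.7%. CTCF was highest in the middle group, at 10.1%, and lowest in the strongest, at 4.08%. The share of regions at or within 1 kb of any annotated GENCODE or RefSeq start, coding or not, rose with strength as well, from 10.7% to 20.5%, and its part in the rise of SP/KLF was not tested. Among regions away from all such starts SP/KLF was present in 4.93%, against 10.7% of those near them.

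How distal these regions are therefore depends on the starts that are counted. Of the 23628, 3286 (13.9%) contained or lay within 1 kb of some annotated start, coding or not, and 1969 (8.33%) contained one. Distances to starts are from the midpoint throughout, so the edge of a wide region can lie nearer. A protein-coding start was itself inside 44 wide regions whose midpoint lay more than 1 kb from it, and 4090 regions (17.3%) lay under 5 kb from one. Just inside the 1 kb limit of the rule there were 773 regions with a midpoint up to 1.5 kb from a start, and just outside it 1092 peaks of all 4 lists at over 0.5 kb. The overlap rule had an edge too: 1295 regions (5.48%) touched a peak of each list without any stretch common to all 4, and where there was a common stretch its median length was 245 bp. The regions are not all separate in the other lists: 1390 (5.88%) overlapped a peak that another of them also overlapped, most often in CD34 SP (1293).

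The 10 strongest regions show this. By the lowest of the 4 percentiles the first was chr17:39842855-39846904, a region of 4050 bp at or above the 99.97th percentile of every list, and the third its neighbour chr17:39847404-39849009; they lie at annotated starts of the long noncoding gene Gm26917 and the ribosomal RNA gene CT010467.1, and the nearest protein-coding start, that of Esp38, was over 100 kb away. Stretches of mm10 known to give false signal were not removed, and whether the first and the third are such stretches was not tested. The second, chr16:42874392-42876615, was 83 bp from the start of the noncoding gene 4932412D23Rik. It was 32141 bp from Zbtb20 (a zinc finger repressor, 448 CPM in the single-cell library). chr2:34904565-34905698 lay 225 bp from a start of Phf19 (a Polycomb-associated protein) not annotated as coding, chr6:122810144-122812158 lay 19 bp from the to-be-tested gene model Gm5112 and 8763 bp from Foxj2 (a forkhead factor, 12.2 CPM), and chr8:69716205-69717570 13 bp from a RefSeq start of the zinc finger gene Zfp869. The seventh, chr13:107888559-107892486, lay 459 bp from Zswim6, which the annotation lists as a processed transcript, and 153923 bp from Smim15, the nearest coding start.

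The other 3 of the 10 strongest regions contained no annotated start and had a midpoint more than 1 kb from each. chr16:4586200-4587321 is the region near Glis2 (32.4 CPM) shown above, at percentiles 99.8 to 99.9. chr7:44304443-44306431 is in an intron of Clec11a, a secreted growth factor of the C-type lectin family (34.9 CPM). Its midpoint lay 1465 bp from the start of that gene, and at a width of 1989 bp its edge lay nearer. chr4:48042366-48043964 lies 1988 bp from Nr4a3, an orphan nuclear receptor and immediate early gene (25.1 CPM). The next strongest regions away from all starts, named after their values were seen, included chr11:109011447-109012231, 88658 bp from the Wnt feedback gene Axin2 (6.03 CPM), at the 99.6th percentile of MRISC and the 99.5th of CD34 SP, and nearer the top in the other lists.

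The strongest CTCF and AP-1 regions away from starts lay near different genes, also named after their values were seen. For CTCF they were chr1:135752794-135753402 (13021 bp from Phlda3, a p53 target, at percentiles 98.2, 99.4, 98.5 and 99.0) and chr1:86503598-86504935 (22459 bp from Ptma, which encodes prothymosin alpha, at 97.9, 97.8, 99.2 and 98.0). Further down the order, a region in an intron at chr10:37135984-37138251 lay 1802 bp from the start of Marcks, at 97.5, 98.2, 98.6 and 96.9. Marcks encodes an actin-binding substrate of protein kinase C. For AP-1, besides the 2 shown above, they were chr7:19823789-19824765, 1507 bp from the NF-kB cofactor gene Bcl3 (98.4, 99.2, 98.8 and 99.5), and chr3:126831164-126832171 in an intron of Camk2d, a calcium-dependent kinase gene (99.8, 99.9, 98.3 and 99.6).

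By position, 47.7% of the shared regions were in introns of protein-coding genes, 47.0% outside such genes and 5.36% in exons, close to 48.9%, 45.3% and 5.86% of the MRISC-only regions. The median distance to a protein-coding start was 22973 bp, against 32060 bp. The ratio of observed to expected CpG had a median of 0.251, against 0.160 in MRISC-only regions and 0.804 in the shared promoters. Their windows were less often masked as repeats, at a mean of 9.68% of bases against 16.8%. Sharing itself was less common away from promoters: 15.1% of distal MRISC peaks were in all 4 lists, against 60.4% of promoter peaks.

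The shared regions were unevenly spread over genes. A gene was counted by its protein-coding start being the nearest to a region, and 8289 of 21670 protein-coding genes (38.3%) had at least 1. The gene with the most was Zfp36l1, which encodes a protein that destabilizes AU-rich mRNAs, with 38 of its 140 distal MRISC peaks shared, though only 9 of the 38 were within 100 kb. Gse1, a chromatin-associated protein gene, and Tns1, which encodes the focal adhesion protein tensin 1, followed with 34 each, then Irf2bp2 (a corepressor) with 31, Zmiz1 (a coactivator) with 30, and Col4a1 (a basement membrane collagen chain) and Filip1l (a filamin-interacting protein) with 29. Lpp, a LIM protein of focal adhesions, and Rgs3, a regulator of G protein signalling, had 25. Col5a1 (a fibrillar collagen chain), the cAMP phosphodiesterase gene Pde4d and the TGF-beta inhibitor gene Smad7 had 23, and the corepressor gene Bcor and the COP9 signalosome gene Cops8 had 22.

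These genes, named by a fixed rule, differed in how much of their neighbourhood was shared. Around Irf2bp2, 51.7% of 60 distal MRISC peaks were in all 4 lists, and around Filip1l 41.4% of 70, while around Col5a1 it was 16.9% of 136, close to the 15.1% over all distal peaks. Around Col4a1 10 of the 29 regions held the AP-1 motif and 0 the CTCF motif. All of those named were above 10 CPM in the single-cell library. At 10 CPM or more were also 80.4% of all genes with 10 or more regions and 37.5% of all protein-coding genes. The named genes ranged from 14.9 CPM for Gse1 (exact Poisson 95% interval 14.0 to 15.8) to 1086 CPM for Zfp36l1 (1079 to 1094).

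Matrix and TGF-beta genes had shared regions almost throughout. Since a gene with more distal peaks can have more shared ones, each list is also given by the share of its genes' distal MRISC peaks that were in all 4 lists, to be read against 15.1% over all distal peaks. It was 21.1% for matrix genes and 22.3% for TGF-beta pathway genes. All 23 matrix genes had at least 1 (median 6.0 regions a gene, against a median of 0 over all protein-coding genes): Col4a1 had 29, Col5a1 23 and Col15a1, a basement membrane collagen gene, 15. Col3a1 and Fn1 (fibronectin) had 12, and Col1a1 11. Within 10 kb of the gene body the count was 16 for Col4a1 and 25 for its neighbour Col4a2, which had 4 by nearest start. Of 16 TGF-beta pathway genes 15 had one, with a median of 11.5, the highest of the lists by nearest start at any distance, though within 100 kb it was 5.5 against 6.5 for the actin and adhesion genes: the inhibitory Smad genes Smad7 and Smad6 had 23 and 20, Ltbp1, whose product stores the latent ligand, 19, and the receptor genes Tgfbr3 and Tgfbr2 16 and 12. Of the ligands Tgfb2 had 11, Tgfb1 1 and Tgfb3 0.

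Of the transcription factor genes of the mesenchyme 29 of 32 had a shared region (median 7.0), but the share of their distal peaks that were shared, 14.8%, was close to that of all distal peaks. Foxf1, the forkhead factor of gut mesenchyme, had 18 of 55 peaks shared, Meis1 (a homeodomain factor) 17 of 112 and Gli2 (a Hedgehog effector) 17 of 99. Tcf21, another mesenchymal factor, had 9. Prrx1, Gli1 and Hand1 had 0, though 15, 2 and 5 distal MRISC peaks lay nearest to them. Of 20 AP-1 and immediate early genes 19 had one (median 4.5, 23.8% of their peaks): Klf6 had 16, Jun and Fosl2 12 each, Fos 9 and Junb 0. Junb had no distal MRISC peak at all by nearest start, and 2 shared regions within 10 kb of its body.

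Of 20 actin and adhesion genes 18 had one (median 6.5, 28.8% of their peaks). Tns1 and Lpp led with 34 and 25, Myh9 (nonmuscle myosin) had 17, and Tpm4 and Tln1 0. All 10 YAP-TEAD and Hippo genes had one (median 4.0, 17.8% of their peaks; the list has 12 names, of which Cyr61 and Ctgf are older symbols of Ccn1 and Ccn2), Ccn2 (a matricellular target) 12 and Tead1 and Vgll4 9 each. Of 16 genes of stem cell niche signals 14 had one (median 3.5), and at 15.6% the share of their peaks was again close to that of all distal peaks: Wnt4 had 11, and Bmp2 and Bmp4 8 each. The R-spondin genes, whose products strengthen Wnt signalling, had few distal MRISC peaks or few shared ones, with 2 of 24 for Rspo3, 0 of 3 for Rspo1 and 0 of 13 for Rspo2, counts too small to set apart from the share over all distal peaks.

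Among smooth muscle genes 9 of 10 had a shared region (median 2.5, 33.9% of their peaks): Synpo2 had 16, Myocd (the cofactor of serum response factor) and Mylk (myosin light chain kinase) 7 each, and Tagln 0. Epithelial and immune genes had few shared regions, but also few distal peaks, and 20% of the peaks of each list were shared. Of 13 epithelial genes 6 had one (46.2%, median 0), with 2 of 9 at Epcam and 2 of 7 at Krt8, and 7 had 0: Krt18, Krt19, Krt20, Cdh1, Muc2, Cdx2 and Elf3. Of 11 immune genes 2 had one: Ptprc, which encodes CD45, had 7 of 26 and Spi1 1 of 2. Among the others Cd3e, Cd3d, Cd79a, Lyz2, Itgam, Cd4, Cd8a and Cd68 had 0. Within 10 kb of the gene body the count was 0 for Ptprc and Epcam, 1 for Krt8 and 2 for Spi1.

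Of 9 endothelial genes 8 had a shared region (median 2.0), at 13.9% of their peaks: Cdh5 had 8 of 37, Vwf 5 of 23 and Pecam1 3 of 21, and Tie1 had 0. Within 10 kb of the gene body the order was another, with 1 for Cdh5, 6 for Vwf and 5 for Pecam1. Of these Cdh5 was at 0.0274 CPM, Vwf at 2.96 and Pecam1 at 1.45. Of 10 neural genes 5 had one (11.7% of their peaks), Rbfox3 6, Stmn2 5 and Neurod1 3, with 0 for Syt1, Gad1, Elavl3, Elavl4 and Sox10. Of 10 genes of unrelated lineages, with 17.4% of their peaks shared, Nanog had 3 and Apoa1 1, and Alb, Myod1, Ins2, Pou5f1, Gata1, Hbb-bs, Ttr and Cyp3a11 had 0. A nearest start is not a target, and median gene length differed between lists, from 5.37 kb for the immediate early genes to 91.1 kb for the endothelial genes, with 17.4 kb over all protein-coding genes.

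Promoters of the sort markers were checked in the 4 lists. At Pdpn, which encodes gp38, the best peak with its midpoint within 1 kb of a start ranked at the 88.4th percentile in MRISC, the 94.0th in CD138 and the 70.9th in Myofibroblast, with none in CD34 SP. At Cd34 it ranked at 98.8, 96.2, 88.5 and 79.4 in MRISC, CD34 SP, CD138 and Myofibroblast, at Sdc1 (CD138) at 91.4, 89.5, 94.1 and 80.5, and at Acta2, the smooth muscle actin gene, at 91.0, 92.9, 89.8 and 97.4. The negative markers were not all closed: Epcam ranked at 70.3, 69.6, 91.6 and 78.6, Pecam1 at 76.0, 71.9, 87.5 and 51.6, and Ptprc had a peak at the 86.3th percentile in CD138, at the 1.16th in MRISC and none in the other 2. The part of cells outside the gate in the shared regions was not tested.

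Genes with more shared regions were detected more often in the single-cell library, where 37.5% of 21622 protein-coding genes reached 10 CPM. With 0 regions 29.3% of 13339 genes did (Wilson interval 28.5% to 30.1%), with 1 region 42.0% of 3694, with 2 to 4 regions 52.3% of 3183, with 5 to 9 regions 67.1% of 1048 and with 10 or more 80.4% of 358 (76.0% to 84.2%). The same count with MRISC-only regions rose less, from 24.9% to 47.9%. Gene length rose with it, from a median of 12.7 kb to 108 kb, and so did the share of genes whose own promoter was open in all 4 lists, from 40.3% to 89.9%; the part of each was not tested.

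Held apart by promoter, most of the difference was between genes with and without a shared promoter peak. Of genes with one, 61.9% (60.6% to 63.2%) were detected with 0 shared distal regions, 61.3% with 1 and 86.6% (82.5% to 89.9%) with 10 or more. Of genes without one, the shares were 7.30% (6.75% to 7.89%), 11.5% and 25% (13.8% to 41.1%, n = 36). A shared promoter peak was present at 51.3% of protein-coding genes. It was present at the nearest gene of 77.5% of the shared distal regions and of 67.2% of the MRISC-only regions.

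**Figure D5:**
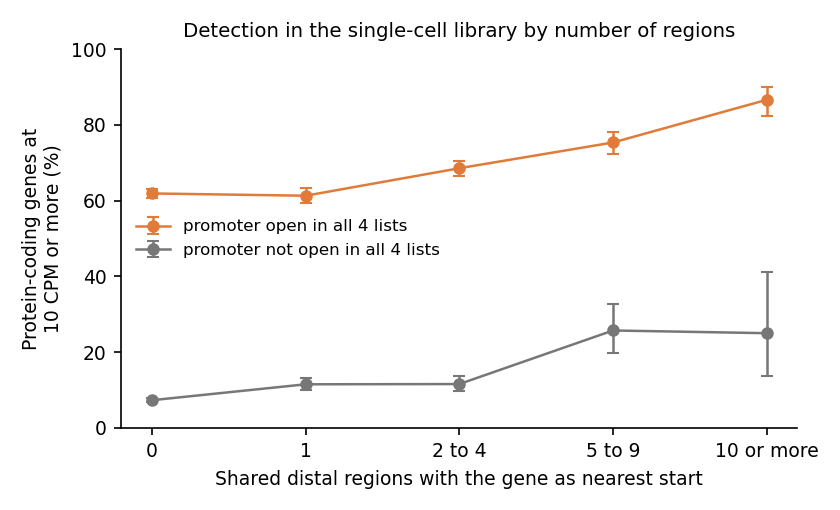
Share of protein-coding genes (%) at 10 CPM or more in the single-cell library, by the number of shared distal regions with the gene as nearest start, for genes whose promoter peak was or was not in all 4 lists, with Wilson 95% intervals. With 10 or more regions the shares are 86.6% and 25%.

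The shared regions were spaced much like regions of 2 or 3 lists. The median distance from a region to the nearest other shared region was 10125 bp, and 33.8% had one within 5 kb, against 10860.5 bp and 34.3% among regions of 2 lists, 12102.5 bp and 30.4% among those of 3, and 6626 bp and 42.0% among the more numerous MRISC-only regions. The densest stretch of 100 kb held 41 shared regions, at chr1:88214013-88314012 (the Ugt1a glucuronosyltransferase genes, Mroh2a, Hjurp and Trpm8). Then came 22 at chr19:5786899-5886898 (Frmd8 and Slc25a45) and 21 at chr2:158093533-158193532 (with Tgm2, the gene of transglutaminase 2). A further 21 were at chr8:126517054-126617053 (Irf2bp2) and 20 at chr8:11299482-11399481 (Col4a1 and Col4a2, a pair of collagen genes with neighbouring starts). Only protein-coding genes are named for these stretches. Of the 22 regions on chromosome 19, 8 contained or lay within 1 kb of an annotated start, coding or not, against 1 to 5 in the other stretches.

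The stretch on chromosome 1 stood apart from the other 4. Its 41 regions covered 47.8% of the 100 kb, against 16.8% to 31.6% in the others. Of its 67 distal MRISC peaks 1 was found in MRISC alone, nearly as in the stretches on chromosomes 2 (2 of 47) and 19 (3 of 53). On chromosome 8 it was 7 of 38 and 7 of 48. The regions of the chromosome 1 stretch ranked at a median of 70.7 in MRISC and 46.6 in CD34 SP, but 89.8 in CD138 and 90.7 in Myofibroblast. In the Irf2bp2 stretch the medians were 87.5, 89.0, 92.3 and 91.2. Stretches of mm10 known to give false signal were not removed here, and whether the one on chromosome 1 is such a stretch was not tested. Over whole chromosomes the share of MRISC peaks that were shared distal regions ranged from 11.7% on chromosome 19 to 15.1% on chromosome 8.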

How the data were processed

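Open chromatin was measured in 8 ATAC-seq libraries and RNA in 1 single-cell library. The authors deposited 1 list of all peaks per population with 1 score per peak; bcl2fastq and bedtools with build mm10 are named in the submitters' processing notes, while the sources used here give no peak caller, score meaning or way of joining libraries. Each list was ranked by its own scores only. The deposited single-cell matrix holds whole-number UMI counts (Cell Ranger, software 3.0.0 per the file headers); 11376 of 11484 barcodes had 500 genes or more with mitochondrial UMIs not above 10% and entered, doublets were not removed, and pooled counts were scaled to CPM.

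Overlaps and nearest starts (54050 protein-coding starts, GENCODE vM21, GRCm38.p6) were computed in Python 3.11.15, and 29 motif words were sought on both strands of the central 200 bp. The overlap, distance and word searches were tested on simulated data (9000 peaks gave the same overlaps as bedtools 2.31.1). Where several peaks overlapped a region, the best-scored was used. Shares carry Wilson 95% intervals, which like the Poisson intervals cover counting error only; no p-values were made, since 1 pooled list holds no replicates. Regions were named by the lowest of their 4 percentiles (10), genes by their number of regions (15, and in each of 13 lists the 3 highest and those at 0), motifs by their ratio to MRISC-only regions (the 6 highest, 3 lowest among those in at least 1% of either class, with the AP-1 sequences added), and stretches by their count; further list genes were named after their values were seen, and a few items under these rules are not reported here. The members and lists were chosen with earlier results of these data known.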

Additional observations from a re-analysis of the deposited data

How the results depend on the processing

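Of 23628 regions, 7456 remained with an overlap of 50% of both peaks and 15550 with the MRISC midpoint inside a peak of each list; the other 11 settings gave 16814 to 24421. The CTCF ratio of shared to MRISC-only regions (14.2) was 11.9 in 400 bp, 24.0 over whole peaks, 17.3 centred on the common stretch, 6.72 in the top 20% of MRISC scores, 4.97 above the median score, 10.6 within GC bins, 19.1 with a stricter and 5.21 with a looser motif. The setting above the median score kept only such peaks in each list and counted the lists anew. Its 22136 MRISC-only regions could thus overlap weaker peaks of other lists. The AP-1 ratio (2.19) was 1.93, 5.07, 2.55, 0.859, 1.35 and 2.38 in the first 6 settings given for CTCF. Away from all GENCODE and RefSeq starts it was 2.28. In the top 20% it was thus below 1, though the intervals of the 2 shares overlapped there, and the cause was not tested. Over whole peaks, where the wider shared regions offer more letters, the ratios of YY1 (3.6), GATA (3.29) and TCF/LEF (3.65) reversed. The top 20% holds only 431 MRISC-only regions, so ratios of rare motifs there are uncertain. YY1 was at 3.97 there (0.920% against 0.232%). TCF/LEF was at 1.01 (2.10% against 2.09%), so its shares were about equal. Introns held 46.8% of regions over 2 kb from a start. At 50 CPM, 42.5% of genes with 10 or more regions were detected, and 9.39% of those with 0. The settings with all annotated starts inside the peak and with a stretch common to all 4 lists were chosen after seeing the data. Wider peaks, depth and the score could not be separated further, since the lists give no reads. No paired analysis was possible because each population has 1 pooled list for its 2 libraries, so replicates could not be left out either.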
